A study of Homo sapiens with 6 samples.

Results

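AP-1 and immediate-early genes were followed in T47D cells, an established luminal breast cancer line that is positive for the estrogen receptor and negative for HER2. The 10 genes were picked by symbol as well-known members of this class, with earlier results of these data known (FOS, FOSB, FOSL2, JUN, JUNB, JUND, ATF3, EGR1, IER2 and IER3). All 10 were among the 20333 gene intervals of the deposited count table, had at least 10 counts in every library and passed the filter on low counts. The assay, PRO-seq (precision run-on sequencing), lets polymerases that are already transcribing add labelled nucleotides in permeabilised cells, and counts the RNA made at that moment rather than mature mRNA. Cells in growth factor-complete medium received DMSO, the solvent, or 500 nM GDC0068, an inhibitor of AKT kinase activity, or 100 nM INY-05-040, a compound that leads to degradation of AKT and is labelled Degrader. Treatment lasted 5 h in all arms, and the doses differed because they had been set for like suppression of signalling below AKT. Each arm had 2 libraries, and the series describes independent experiments.

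AP-1 is a dimer of basic leucine zipper proteins. FOS proteins cannot pair with one another and bind DNA with a JUN partner, whereas JUN proteins also form dimers among themselves, and ATF3 joins JUN proteins or binds as a dimer that often represses. Immediate-early genes are switched on within minutes of a growth factor or stress signal, without new protein synthesis, through factors that already sit at serum response and cyclic AMP response elements in their promoters. In breast epithelium, MAPK and JNK cascades are the best known inputs to these genes, and AKT acts in a parallel branch below the same growth factor receptors.

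The libraries held 25371819 to 32192576 counts. All 13 luminal markers measured had at least 1 CPM (the usual depth-scaled count, here with TMM factors), and their summed level lay between 6204 and 6711 CPM in the 6 libraries. Of 10 basal and mesenchymal markers 5 were measured, at 59.3 to 74.8 CPM in sum. CD14 was the single measured gene of 11 immune, endothelial and fibroblast markers and stayed between 0.348 and 0.559 CPM. The members ranged from 117 counts (FOSB, lowest library), where counting error alone is 9.25%, to at least 4073 counts in every library for IER3, where it is 1.57%.

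The promoters of the members are shown first because this class of genes is switched on through promoter elements. RefSeq (GRCh38.p14) gave promoter sequences for 9 of the 10 members; IER3 had no entry. For 6 of them (FOS, FOSL2, JUN, JUNB, JUND and EGR1) the RefSeq start lay within 10 bases of the start of the counted interval. The counted interval began 1918 bases downstream of the RefSeq start in FOSB and 1503 bases downstream in IER2, and both RefSeq starts of ATF3 lay elsewhere, 43354 bases upstream and 6257 bases downstream of the counted start. The 250 bases before the start are printed 5′ to 3′ on the gene's strand for 5 of the members whose starts matched, from both the FOS and JUN families and EGR1. Capitals mark the core of the cyclic AMP response element, TGACG, or its complement CGTCA, the full element TGACGTCA, the CArG box that binds serum response factor, the FOXO site TGTTTAC and the TATA box TATAAA.
FOS (chr14:75278578-75278827, plus strand): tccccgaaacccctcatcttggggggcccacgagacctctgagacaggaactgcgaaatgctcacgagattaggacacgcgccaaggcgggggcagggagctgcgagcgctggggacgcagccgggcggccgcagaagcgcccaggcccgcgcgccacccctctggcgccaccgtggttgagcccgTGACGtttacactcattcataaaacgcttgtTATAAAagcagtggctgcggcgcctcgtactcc
JUND (chr19:18281623-18281872, minus strand): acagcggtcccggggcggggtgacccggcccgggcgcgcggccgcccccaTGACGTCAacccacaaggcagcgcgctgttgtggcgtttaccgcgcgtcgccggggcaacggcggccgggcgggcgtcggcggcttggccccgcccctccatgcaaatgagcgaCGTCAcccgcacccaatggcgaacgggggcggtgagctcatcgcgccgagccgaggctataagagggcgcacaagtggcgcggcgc
JUNB (chr19:12791236-12791485, plus strand): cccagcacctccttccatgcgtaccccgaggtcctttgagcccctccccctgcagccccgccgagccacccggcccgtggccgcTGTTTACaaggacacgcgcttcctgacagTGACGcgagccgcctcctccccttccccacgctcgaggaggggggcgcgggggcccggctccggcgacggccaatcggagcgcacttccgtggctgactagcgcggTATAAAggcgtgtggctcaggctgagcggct
JUN (chr1:58784048-58784297, minus strand): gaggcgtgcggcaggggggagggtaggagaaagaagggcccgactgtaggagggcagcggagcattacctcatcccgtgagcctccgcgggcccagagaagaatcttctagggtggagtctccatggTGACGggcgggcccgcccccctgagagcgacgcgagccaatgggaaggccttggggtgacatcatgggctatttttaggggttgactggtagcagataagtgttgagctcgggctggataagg
EGR1 (chr5:138465229-138465478, plus strand): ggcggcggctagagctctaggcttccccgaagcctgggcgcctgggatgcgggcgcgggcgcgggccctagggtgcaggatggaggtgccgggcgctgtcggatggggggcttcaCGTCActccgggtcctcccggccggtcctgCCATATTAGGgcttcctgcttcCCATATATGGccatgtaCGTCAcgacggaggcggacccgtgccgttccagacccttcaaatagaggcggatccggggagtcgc

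The core TGACG, searched on both strands, was found in 8 of the 9 members and in all 6 whose RefSeq start matched the counted one. It occurs in 21.2% of all 35116 promoters of the same length. In FOS it lay 64 to 60 bases before the start, in FOSB 60 to 56 and in FOSL2 66 to 62, with another copy farther upstream in FOSL2. The full element TGACGTCA, which contains the core on both strands, was found in JUND alone (1.65% of all promoters), 200 to 193 bases before the start. EGR1 held a pair of CArG boxes, CCATATTAGG and CCATATATGG, and no other member had one in this window (1.16% of all promoters). Sequence outside the window was not searched, so a CArG box lying farther upstream, in FOS or another member, would have been missed. TATAAA was found in FOS, FOSB, JUNB and 1 of the ATF3 windows (10.7% of all promoters), beginning 33 bases before the start in FOS, 30 in FOSB and 31 in JUNB but 230 in ATF3. The AP-1 site TGACTCA was in none of the 9 (4.2% of all promoters), and TGTTTAC was in JUNB only (2.98%). These are matches to the letters given, so variants of a site were not counted, and they were not tested as sites of binding.

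Per length of the counted interval, transcription of the members in DMSO spanned from 0.799 CPM per kb for FOSB to 120 CPM per kb for IER3. The JUN family was dense, with 37.1 CPM per kb for JUND, 28.8 for JUNB and 26.3 for JUN. FOS family genes were sparse, with 3.55 CPM per kb for FOS and 2.16 for FOSL2. IER2 (17.1 CPM per kb), ATF3 (8.8) and EGR1 (3.25) lay between the extremes. The density of FOS was 5.2 CPM per kb under GDC0068 and 5.39 under Degrader, and in every arm it lay above that of EGR1 (4.01 under GDC0068 and 3.46 under Degrader) and below that of ATF3 (9.1 and 10.7). The intervals of FOSB, IER2 and ATF3 start far from the RefSeq starts, so their counts may cover only part of the gene. In every arm, then, the 3 JUN genes had more CPM per kb of counted interval than the 3 FOS genes. This measure depends on length: FOSL2, over 24460 bases, and JUNB, over 1830 bases, had like levels in DMSO (52.9 and 52.8 CPM). Where in each interval the counts lay was not tested.

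**Figure D1:**
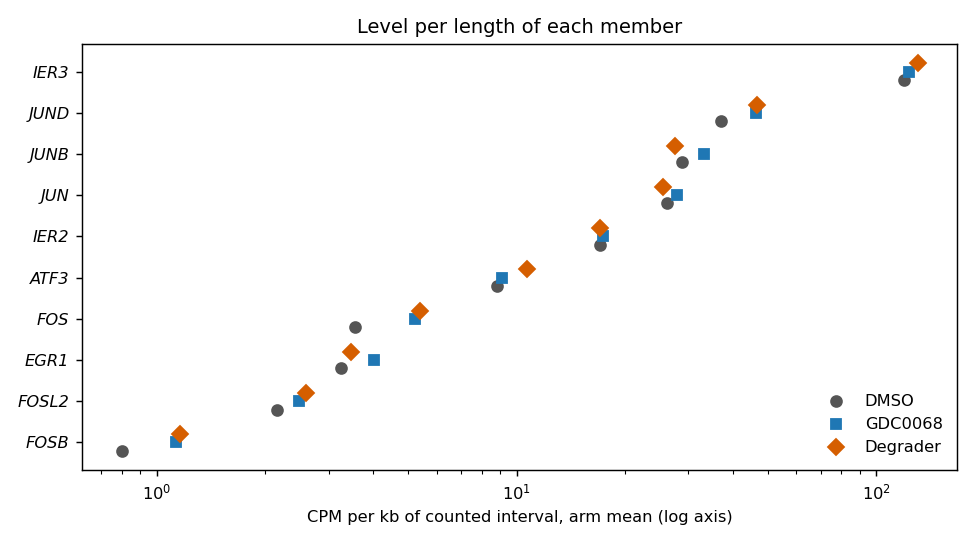
Mean level per kb of counted interval for each member (x axis, CPM per kb, log scale) in DMSO (circles), GDC0068 (squares) and Degrader (diamonds). The members run from FOSB, near 1 CPM per kb, to IER3, at 120 to 130 CPM per kb, and the 3 JUN genes lie above the 3 FOS genes.

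Against DMSO, Degrader raised 3 of the 10 members (FOS, JUND and ATF3) and lowered 0, at an edgeR adjusted p under 0.05, the threshold for a call throughout. Over all 19902 genes tested, 7.39% were called higher and 7.88% lower. In 5 members both Degrader libraries lay above both DMSO libraries, which was so for 29.3% of all genes, and in 0 members below both (29.2% of all genes). At an unadjusted p under 0.05 there were 4 members (29.9% of all genes). The median log2 fold change of the members was 0.19, against -0.0014 for all genes tested. GDC0068 raised 1 member, FOS, and lowered 0, where 1.7% of all genes were called higher and 1.88% lower. Both GDC0068 libraries lay above both DMSO libraries in 6 members (26.1% of all genes) and below both in 0 (24% of all genes), and 5 members had an unadjusted p under 0.05 (20% of all genes). The median of the members was 0.20, against 0.0099 for all genes. These contrasts share the DMSO libraries, so a low or high DMSO library moves both. The Degrader count fell without DMSO replicate 1 or Degrader replicate 2, where FOS alone kept its call. The GDC0068 count fell without DMSO replicate 1, DMSO replicate 2 or GDC0068 replicate 1. In these GDC0068 fits the count over all genes fell as well, so the fall was not particular to the members. All values are averages over a culture and relative to the bulk of genes, so fewer transcribing cells and less transcription per cell cannot be told apart.

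Equally numbered libraries are treated here and below as 1 experiment. This pairing was inferred from the numbers and from a correlation between equally numbered libraries, and the sample titles give replicate numbers only. Taking it into account as a block raised these counts. With the block, edgeR called 6 members higher under Degrader (FOS, FOSB, FOSL2, JUND, ATF3 and IER3; 15.1% of all genes) and 6 under GDC0068 (FOS, FOSB, FOSL2, JUNB, JUND and EGR1; 8.87% of all genes), and called 0 lower under either drug (15.7% and 8.91% of all genes). The background also rose, from 15.3% to 30.7% of genes called in either direction under Degrader and from 3.58% to 17.8% under GDC0068. The members called under both drugs with the block were FOS, FOSB, FOSL2 and JUND. ATF3 and IER3 were called under Degrader alone, and JUNB and EGR1 under GDC0068 alone. Whether these last 4 differ between the drugs is given by the direct contrast reported with each gene.

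**Figure D2:**
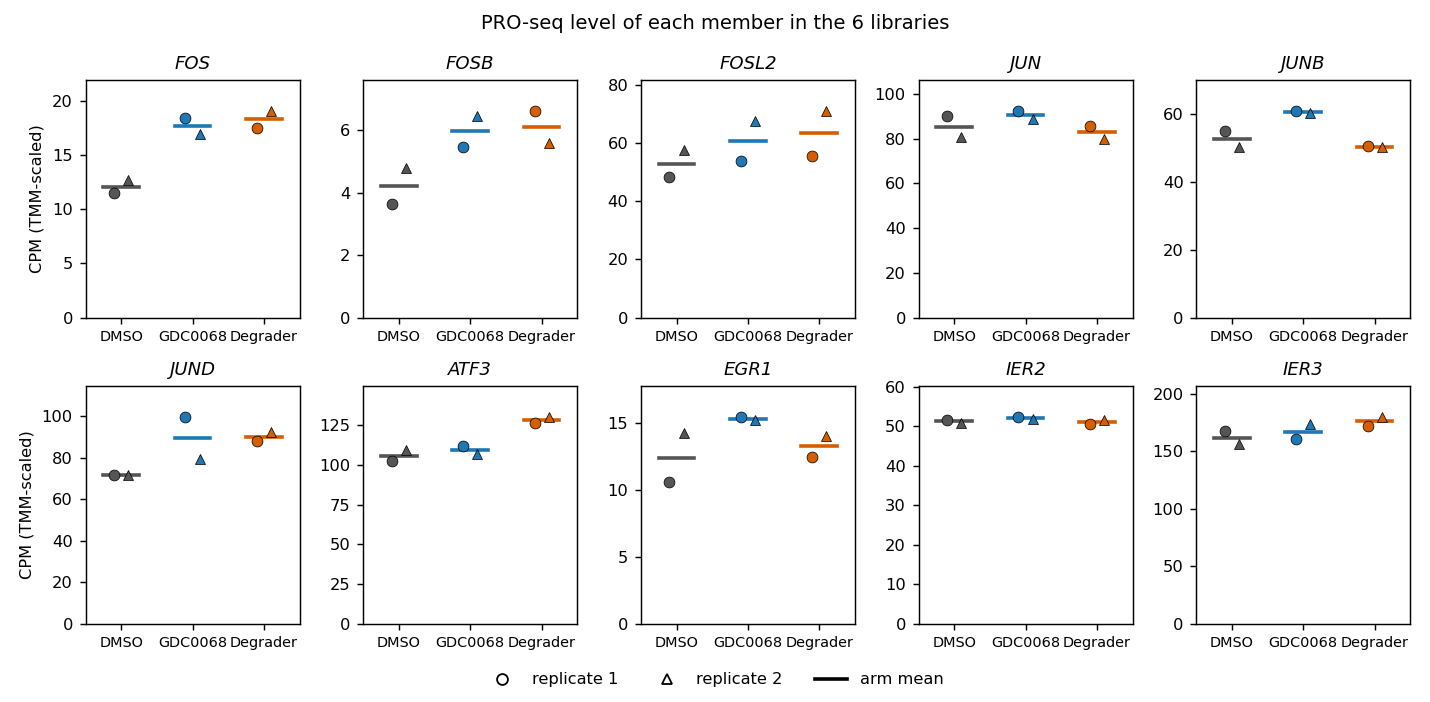
Level of each member in the 6 libraries (y axis, CPM scaled by TMM, starting at 0) by arm, with circles for replicate 1, triangles for replicate 2 and a bar at the arm mean. FOS rises from 11.5 and 12.7 CPM in DMSO to between 16.9 and 19.1 CPM under the drugs, ATF3 is higher under Degrader alone, JUNB is highest under GDC0068, and IER2 stays between 50.7 and 52.4 CPM.

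FOS (ENSG00000170345, chromosome 14, 75278828 to 75282230, plus strand), the founding member of its family, had the largest fold change of the 10 members under each drug. It stood at 11.5 and 12.7 CPM in the DMSO libraries, 18.5 and 16.9 CPM under GDC0068 and 17.5 and 19.1 CPM under Degrader. All 4 drug libraries lay above both DMSO libraries, and the drugs overlapped with each other. Transcription under Degrader was 1.52-fold that in DMSO, or 0.60 in log2 units (SE 0.102, 95% interval 0.38 to 0.83, edgeR adjusted p = 0.00292). The 2 experiments gave 0.61 and 0.59. This call held when any 1 library was left out, with edgeR adjusted p from 0.00324 to 0.0415. Under GDC0068 the level was 1.47-fold that in DMSO, or 0.55 in log2 units (SE 0.102, 95% interval 0.33 to 0.78, edgeR adjusted p = 0.0176), with 0.68 and 0.41 in the experiments. The GDC0068 call was lost without DMSO replicate 1, DMSO replicate 2, GDC0068 replicate 1 or GDC0068 replicate 2 (edgeR adjusted p = 0.155, 0.0611, 0.0714 and 0.0575), while its value stayed between 0.48 and 0.62. The direct difference between the drugs was 0.05, with a 95% interval from -0.16 to 0.27 (edgeR adjusted p = 0.854).

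FOSB (ENSG00000125740, chromosome 19, 45469914 to 45475179, plus strand) encodes another dimer partner of JUN and had the fewest counts of the members, over an interval that leaves out the first 1918 bases after the RefSeq start. Its levels were 3.64 and 4.78 CPM in DMSO, 5.47 and 6.44 CPM under GDC0068 and 6.62 and 5.59 CPM under Degrader. As for FOS, the 4 drug libraries lay above both DMSO libraries and the drugs overlapped. On the log2 scale FOSB stood 0.54 higher under Degrader, with an SE of 0.173 (edgeR adjusted p = 0.0551), and 0.51 higher under GDC0068, with an SE of 0.174 (edgeR adjusted p = 0.13). These values lie near those of FOS, but the error is wider. Neither was called; with the experiment as a block both were (edgeR adjusted p = 0.00786 and 0.0222). Robust estimation of the spread also called FOSB under Degrader (edgeR adjusted p = 0.0455), and so did the fit without DMSO replicate 2 (edgeR adjusted p = 0.0434). Between the drugs the difference was 0.03 (95% interval -0.33 to 0.39).

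FOSL2 (ENSG00000075426, chromosome 2, 28392858 to 28417317, plus strand) encodes FRA-2, a FOS protein whose expression tends to last longer after a stimulus. Replicate 2 exceeded replicate 1 in every arm: the values were 48.1 and 57.6 CPM in DMSO, 53.9 and 67.5 CPM under GDC0068 and 55.6 and 71.1 CPM under Degrader. The arms therefore overlapped, but within each experiment the order was DMSO, GDC0068, Degrader. The log2 fold changes of 0.26 under Degrader and 0.20 under GDC0068 were not called (edgeR adjusted p = 0.18 and 0.393). The block reduced the SE from 0.124 to 0.0475 under Degrader, and both changes were then called, at 0.26 and 0.20 (edgeR adjusted p = 1.22e-04 and 0.00461). The difference between the drugs was 0.06 (95% interval -0.21 to 0.33; with the block, edgeR adjusted p = 0.457).

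JUN (ENSG00000177606, chromosome 1, 58780791 to 58784043, minus strand), the main JNK substrate among these proteins, was at 90.1 and 80.8 CPM in DMSO, 92.5 and 88.9 CPM under GDC0068 and 85.6 and 80.0 CPM under Degrader. The libraries of both drugs overlapped with those of DMSO, and replicate 1 was the higher library in every arm. Against DMSO the log2 fold change was -0.05 under Degrader (95% interval -0.18 to 0.09, edgeR adjusted p = 0.671) and 0.08 under GDC0068 (95% interval -0.05 to 0.22, edgeR adjusted p = 0.488). The interval under Degrader does not reach the size of the FOS change. Both Degrader libraries lay below both GDC0068 libraries, by -0.13 on the log2 scale (SE 0.0625, edgeR adjusted p = 0.371), a difference that was called with the block (edgeR adjusted p = 0.0357).

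JUNB (ENSG00000171223, chromosome 19, 12791486 to 12793315, plus strand), which encodes a JUN protein that activates less strongly and can oppose JUN, stood highest under GDC0068. It was at 55.1 and 50.4 CPM in DMSO, 61.1 and 60.4 CPM under GDC0068 and 50.7 and 50.3 CPM under Degrader. The GDC0068 libraries lay above all others, and Degrader overlapped with DMSO. Under GDC0068 the log2 fold change was 0.20 (SE 0.059, edgeR adjusted p = 0.0853; with the block, edgeR adjusted p = 0.00477). Under Degrader it was -0.07 (95% interval -0.20 to 0.06, edgeR adjusted p = 0.508). The direct contrast put Degrader lower by -0.27 (SE 0.0593, 95% interval -0.40 to -0.14), with -0.27 and -0.26 in the 2 experiments; this was not called without the block (edgeR adjusted p = 0.0904) and was called with it (edgeR adjusted p = 8.61e-04).

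JUND (ENSG00000130522, chromosome 19, 18279694 to 18281622, minus strand) encodes the JUN protein that is present in most resting cells. It stood at 71.5 and 71.6 CPM in DMSO, 99.6 and 79.3 CPM under GDC0068 and 88.0 and 92.2 CPM under Degrader. Each drug library exceeded both DMSO libraries, and the GDC0068 libraries spread around the Degrader ones. The change under Degrader was 1.26-fold, or 0.33 in log2 units with an SE of 0.085 (edgeR adjusted p = 0.0228). It lost its call without DMSO replicate 1, DMSO replicate 2 or Degrader replicate 2 (edgeR adjusted p = 0.112, 0.0802 and 0.141), with values from 0.29 to 0.37. Under GDC0068 the difference of 0.32 (SE 0.0852) missed the threshold (edgeR adjusted p = 0.0628). It was called with the block (edgeR adjusted p = 3.09e-04), in DESeq2 (adjusted p = 0.0324) and without GDC0068 replicate 2, where it was 0.47 (edgeR adjusted p = 0.0183). The drugs differed by 0.01 (95% interval -0.17 to 0.20).

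ATF3 (ENSG00000162772, chromosome 1, 212608761 to 212620775, plus strand), a stress-induced gene of the ATF and AP-1 superfamily that is also a target of the integrated stress response, rose under Degrader. Its levels were 102 and 109 CPM in DMSO, 112 and 107 CPM under GDC0068 and 126 and 130 CPM under Degrader. The Degrader libraries lay above the other 4, and GDC0068 overlapped with DMSO. Degrader raised it 1.21-fold, or by 0.28 in log2 units (SE 0.0526, 95% interval 0.16 to 0.39, edgeR adjusted p = 0.00528), with 0.30 and 0.25 in the experiments. The call was lost without DMSO replicate 1 (0.23, edgeR adjusted p = 0.0717) and without Degrader replicate 2 (0.25, edgeR adjusted p = 0.0656). Under GDC0068 the change was 0.05 (95% interval -0.07 to 0.16, edgeR adjusted p = 0.655). Degrader exceeded GDC0068 by 0.23 (SE 0.0526, 95% interval 0.12 to 0.35); this was not called without the block (edgeR adjusted p = 0.0961) and was called with it (edgeR adjusted p = 3.42e-04).

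EGR1 (ENSG00000120738, chromosome 5, 138465480 to 138469303, plus strand) encodes a zinc finger factor and is a classical readout of ERK and serum response factor. It was at 10.6 and 14.3 CPM in DMSO, 15.5 and 15.2 CPM under GDC0068 and 12.5 and 14.0 CPM under Degrader. Both GDC0068 libraries lay above all others, while Degrader fell within the DMSO range. The log2 fold change under GDC0068 was 0.31 (SE 0.133, edgeR adjusted p = 0.217), with 0.54 in one experiment and 0.09 in the other, and it was called with the block (edgeR adjusted p = 0.0336). Under Degrader it was 0.10 (95% interval -0.19 to 0.39, edgeR adjusted p = 0.668). Degrader against GDC0068 gave -0.21 (95% interval -0.50 to 0.08), which was called neither without nor with the block (edgeR adjusted p = 0.498 and 0.197).

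IER2 (ENSG00000160888, chromosome 19, 13151914 to 13154908, plus strand), which encodes a nuclear protein linked to transcriptional control, gave 51.6 and 50.8 CPM in DMSO, 52.4 and 52.0 CPM under GDC0068 and 50.7 and 51.6 CPM under Degrader. Its changes were -0.0036 under Degrader (95% interval -0.12 to 0.11) and 0.03 under GDC0068 (95% interval -0.09 to 0.14), and neither was called with or without the block. An antisense interval, AC011446.3, overlaps it by 662 bases and held between 1.11 and 2.08 CPM. IER3 (ENSG00000137331, chromosome 6, 30743199 to 30744547, minus strand), a regulator of cell survival induced by NF-kappaB and other stress inputs, had 167 and 156 CPM in DMSO, 160 and 173 CPM under GDC0068 and 172 and 180 CPM under Degrader. Both Degrader libraries lay above both DMSO libraries, by 0.12 on the log2 scale (SE 0.057, edgeR adjusted p = 0.175; with the block, edgeR adjusted p = 0.0227). GDC0068 overlapped with both other arms (0.05, edgeR adjusted p = 0.708), and between the drugs IER3 differed by 0.08 (95% interval -0.05 to 0.20). The antisense interval IER3-AS1 overlaps IER3 by 394 bases and held 3.42 to 4.84 CPM. The use of strand in counting is not stated, so reads of either gene pair could be shared.

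**Figure D3:**
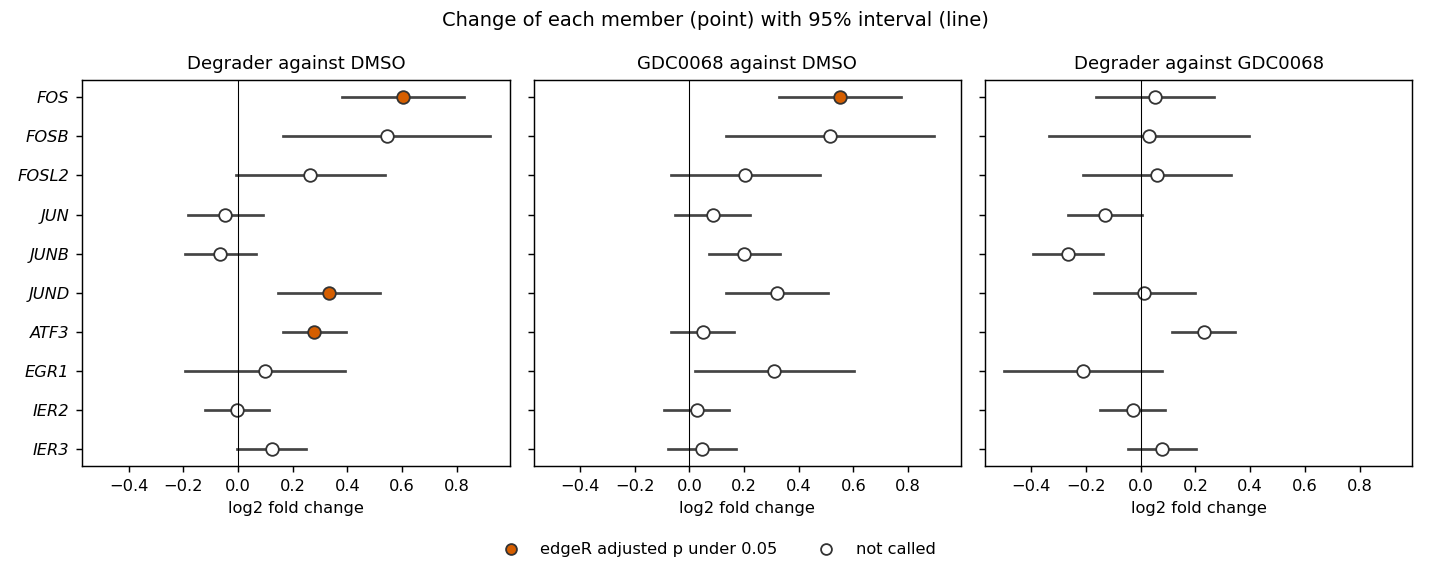
Log2 fold change of each member (points) with its 95% interval from the edgeR fit of 6 libraries (lines) in the 3 contrasts; filled points have an edgeR adjusted p under 0.05. FOS, JUND and ATF3 are filled under Degrader and FOS under GDC0068. Between the drugs no point is filled, and the unadjusted intervals of JUNB (-0.40 to -0.14) and ATF3 (0.12 to 0.35) lie on opposite sides of 0.

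In the direct contrast of Degrader with GDC0068, edgeR called 0 of the 10 members, against 0.266% of all genes in either direction, 0.116% higher and 0.151% lower. At an unadjusted p under 0.05 there were 2 members, JUNB and ATF3 (14.1% of all genes), and DESeq2 and limma voom also called 0. With the block, 3 members were called, ATF3 higher and JUN and JUNB lower under Degrader, against 10.4% of all genes, 5.03% higher and 5.35% lower. Both Degrader libraries lay above both GDC0068 libraries in 1 member, ATF3 (22.1% of all genes), and below both in 4, JUN, JUNB, EGR1 and IER2 (22.9% of all genes). FOS, FOSB, FOSL2 and JUND, the 4 members raised by both drugs with the block, differed between the drugs by 0.01 to 0.06 on the log2 scale, and the bounds of their 95% intervals lay between -0.33 and 0.39.

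The genes whose profiles over the 6 libraries were most like that of FOS, searched over the 13897 genes that averaged 10 CPM or more, were LNX2 (Pearson's r = 0.998), OAS2 (0.997), FRG1 (0.996) and AC053527.2 (0.995). For JUN they were SPATA20 (0.987), SOWAHA (0.987), KRT8 (0.984) and FAM156B (0.977). With 6 libraries in 3 arms and so many genes searched, these values describe the ranking alone. None of the 8 was in the lists of immediate-early or AP-1 genes, and KRT8 was 1 of the luminal markers.

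Other immediate-early genes were read from the same fit, in a list of 37 tested genes outside the members. Under GDC0068, edgeR called 5 of the 37 higher (ZFP36L2, IER5, CCN1, ID3 and BTG2) and 0 lower, where 1.7% and 1.88% of all genes were, with a median log2 fold change of 0.18 against 0.0099 for all genes. With the block, 19 of the 37 were called higher and 0 lower, where the background was 8.87% higher and 8.91% lower. Under Degrader, 7 were called higher and 0 lower (7.39% and 7.88% of all genes), with a median of 0.06 against -0.0014, and with the block 12 were higher and 2 lower (15.1% and 15.7% of all genes). The GDC0068 count was lower in each fit that left out 1 library, and so was the count over all genes. The fall was therefore not particular to this list. The Degrader count was also lower without either Degrader library.

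Genes raised by both drugs included ZFP36L2, which encodes a protein that promotes decay of AU-rich mRNAs. It was at 95.4 and 95.9 CPM in DMSO, 118 and 130 CPM under GDC0068 and 119 and 125 CPM under Degrader, with log2 fold changes of 0.38 (edgeR adjusted p = 0.00817) and 0.35 (edgeR adjusted p = 0.002). CCN1, a secreted matrix-associated protein, went from 70.2 and 70.6 CPM to 93.0 and 80.4 CPM under GDC0068 (0.30, edgeR adjusted p = 0.0345) and to 93.9 and 90.3 CPM under Degrader (0.39, edgeR adjusted p = 0.00306). In both genes, as in FOS, all 4 drug libraries exceeded the DMSO libraries. BTG2, an antiproliferative gene, rose by 0.38 under GDC0068 (edgeR adjusted p = 0.0375) and 0.34 under Degrader (edgeR adjusted p = 0.0212).

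KLF6, a zinc finger factor, went from 150 and 127 CPM in DMSO to 201 and 179 CPM under Degrader (0.46, edgeR adjusted p = 0.00285) and stood at 164 and 156 CPM under GDC0068 (0.21, edgeR adjusted p = 0.163; with the block, edgeR adjusted p = 2.80e-04). ID2, an inhibitor of helix-loop-helix factors, rose by 0.32 under Degrader (edgeR adjusted p = 0.0179). Under GDC0068 its value was 0.24 (edgeR adjusted p = 0.105; with the block, edgeR adjusted p = 0.0141), and the drugs differed by 0.07 (edgeR adjusted p = 0.711). IER5 and ID3, like JUNB, stood highest under GDC0068. IER5 was at 112 and 113 CPM in DMSO, 145 and 136 CPM under GDC0068 and 111 and 108 CPM under Degrader. Its change was 0.32 under GDC0068 (edgeR adjusted p = 0.00946) and -0.04 under Degrader (edgeR adjusted p = 0.601), and the direct contrast of -0.36 was called (SE 0.0497, edgeR adjusted p = 0.0154). That call was lost without GDC0068 replicate 1, Degrader replicate 1 or Degrader replicate 2 (edgeR adjusted p = 0.159, 0.125 and 0.146). ID3 rose by 0.24 under GDC0068 (edgeR adjusted p = 0.0349), with 0.09 under Degrader (edgeR adjusted p = 0.275) and -0.15 between the drugs (edgeR adjusted p = 0.25; with the block, edgeR adjusted p = 0.0283).

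Degrader raised 2 and lowered 2 of 11 other tested genes of the AP-1 and MAF bZIP families. Under GDC0068 edgeR called 0 of them (3.58% of all genes), and 1 had an unadjusted p under 0.05 (20% of all genes). There limma voom called 0, and DESeq2 called 0 of the 8 to which it gave an adjusted p. With the block 1 was called under GDC0068, JDP2, which was lower (edgeR adjusted p = 0.007), where 8.91% of all genes were called lower. MAFF, a small MAF protein without an activation domain, went from 13.7 CPM in both DMSO libraries to 18.4 and 19.0 CPM under Degrader (0.45, edgeR adjusted p = 0.0076). ATF2, a JUN partner, rose by 0.19 (edgeR adjusted p = 0.0369; DESeq2 adjusted p = 0.104). JDP2, which represses AP-1 as a JUN partner, fell from 250 and 246 CPM to 214 and 205 CPM, by -0.24 (edgeR adjusted p = 0.00752). MAFA, a large MAF factor, fell from 28.6 and 25.2 CPM to 16.5 and 21.3 CPM, by -0.51 (edgeR adjusted p = 0.0124). The 4 calls became 0 without DMSO replicate 1, 2 without Degrader replicate 1 and 1 without Degrader replicate 2, and with the block they were 7, where 15.3% of all genes were called without the block and 30.7% with it.

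Of 13 tested factors listed as acting upstream of these genes, edgeR called MEF2D alone under Degrader (15.3% of all genes). Under GDC0068 edgeR called 0 (3.58% of all genes), and 3 had an unadjusted p under 0.05 (20% of all genes). DESeq2 and limma voom also called 0 under GDC0068. The list was not limited to factors of serum and cyclic AMP response elements. With the block, 1 (MEF2D) was called higher and 2 lower under GDC0068 (8.87% and 8.91% of all genes). MEF2D, a MADS-box factor of the JUN promoter, went from 89.4 and 85.6 CPM to 116 and 114 CPM under Degrader, by 0.39 (edgeR adjusted p = 0.00143), and stood at 95.1 and 106 CPM under GDC0068 (0.20, edgeR adjusted p = 0.0812; with the block, edgeR adjusted p = 0.00184). The median of this list was 0.03 under Degrader and -0.02 under GDC0068. Of 28 listed textbook targets of AP-1, 16 were tested, and MMP1, MMP9, PLAUR and IL6 were among those without a counted interval. In each contrast with DMSO 1 of the 16 was called, where 15.3% of all genes were under Degrader and 3.58% under GDC0068. That gene was lower in both: VEGFA, the endothelial growth factor, which also responds to hypoxia factors. It went from 71.9 and 68.0 CPM to 49.4 and 45.4 CPM under GDC0068 (-0.56, edgeR adjusted p = 0.00182) and 42.0 and 41.0 CPM under Degrader (-0.75, edgeR adjusted p = 8.29e-05). The target list had medians of -0.10 under Degrader and -0.04 under GDC0068, and with the block 4 of 16 (1 higher, 3 lower) and 3 of 16 (1 higher, 2 lower) were called, where the background was 30.7% and 17.8% of all genes.

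**Figure D4:**
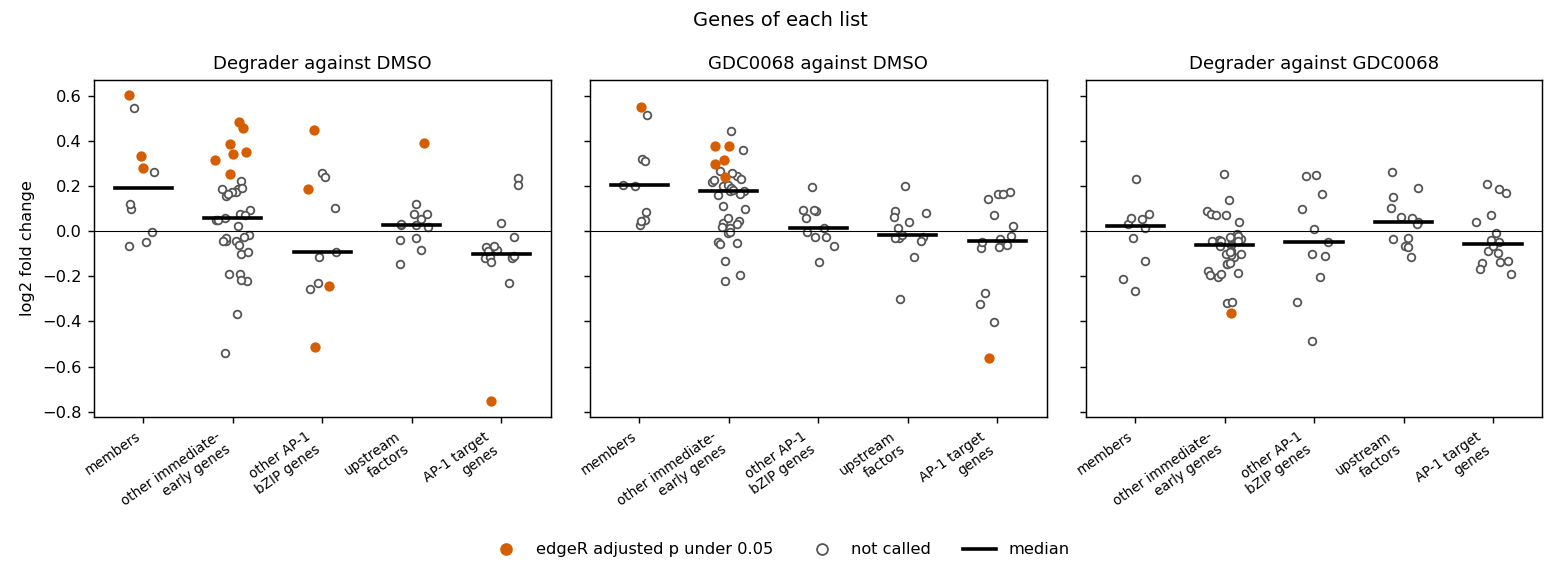
Log2 fold change (y axis) of the 10 members and of the genes of 4 other lists in the 3 contrasts; each point is 1 gene, filled where the edgeR adjusted p is under 0.05, and bars are medians. The medians of the members (0.19 and 0.20) and of the other immediate-early genes (0.06 and 0.18) lie above 0 under Degrader and GDC0068, and those of the AP-1 targets (-0.10 and -0.04) lie below it.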

How the data were processed

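PRO-seq counts of 3 arms, with 2 libraries each, were analysed. The authors deposited raw counts per gene interval, whole numbers with 1 column per library, and totals of 25371819 to 32192576. Per the submitters' processing notes, cutadapt 1.14, Bowtie 1.2.2, SAMtools 1.3.1, HISAT2 2.2.1 and limma were used with the builds dm3, hg38 and GRCh38, whose roles are not listed. The counting tool, its use of strand, the handling of duplicates and any spike-in scaling are not given in the sources used here, so every change is relative to the bulk of genes. Per the labels' protocols, cells were trypsinised before they were chilled and permeabilised. In R 4.3.3, edgeR 4.0.16 filtered low counts (filterByExpr, minimum count 10, minimum total 15), scaled libraries by TMM (factors 0.997 to 1.003) and fitted all 6 libraries together (glmQLFit, glmQLFTest, a term per arm, 3 residual degrees of freedom), with Benjamini-Hochberg adjustment over 19902 genes. The SE of a log2 fold change is its size over the square root of F, and the 95% interval uses the t distribution of the fit. The fit was tested on simulated counts. The replicate numbers were taken to pair the libraries, although the sample titles do not state it. Deviations from arm means of equally numbered libraries correlated with r = 0.177, 0.22 and 0.204 for the 3 pairs of arms across all genes tested. Across the 13897 genes that averaged 10 CPM or more, the values were 0.419, 0.492 and 0.425. The series describes independent experiments. The number was therefore also entered as a block (2 residual degrees of freedom). DESeq2 1.42.0, limma 3.58.1 (voom), other scalings, other filters and leaving out each library were alternatives. No permutation test of 2 libraries against 2 can go below p = 0.333 (exact, two-sided). The members, lists and tests were chosen with earlier results of these data known. Beside the members, the text names up to 4 called genes per list and contrast, those of smallest adjusted p, and the 4 genes most like FOS and JUN; AKT1 and AKT2, also in that rule, are not discussed. BTG2 was named after its values were seen. Promoter sequences came from RefSeq (GRCh38.p14).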

Additional observations from a re-analysis of the deposited data

How the results depend on the processing

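Under 16 alternatives (DESeq2, limma voom, other scalings and filters, fits of 4 libraries, robust estimation, the replicate block and each library left out), FOS under Degrader kept its direction and its call. Counts moved most with the replicate block: over all genes edgeR then called 6114 genes for Degrader, 3540 for GDC0068 and 2065 in the direct contrast, against 3039, 712 and 53 without it, and 6, 6 and 3 members against 3, 1 and 0. The block changed no call from past to short of the threshold among all genes in the 3 contrasts. Between the drugs DESeq2 called 136 genes, robust estimation 116 and the fit of 4 libraries 23. Under GDC0068 DESeq2 called 2 of the 9 members to which it gave an adjusted p. Leaving out 1 library gave 931 to 3217 genes for Degrader, 37 to 546 for GDC0068 and 5 to 63 in the direct contrast, and 1 to 3, 0 to 1 and 0 to 0 members. The lowest members count under Degrader came without DMSO replicate 1 or Degrader replicate 2, where FOS alone was called. Values near 0 changed sign when 1 library was left out. Under Degrader, JUN ran from -0.12 to 0.033, EGR1 from -0.11 to 0.32 and IER2 from -0.025 to 0.0087. Under GDC0068, ATF3 ran from -0.0029 to 0.10, IER3 from -0.019 to 0.10 and MAFA from -0.12 to 0.067. Between the drugs, FOS ran from -0.014 to 0.12, FOSB from -0.091 to 0.17, FOSL2 from -0.13 to 0.24, JUND from -0.14 to 0.19, ZFP36L2 from -0.086 to 0.051 and CCN1 from -0.0061 to 0.20. With 2 libraries per arm, a fit that leaves out 1 assumes that the lone library varies like the other arms. FOSB, with the fewest counts, had the widest intervals among the members.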
